A study of Mus musculus with 12 samples.

Results

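The homeostatic microglia signature is described here through 9 genes that are widely used to mark resting microglia in mice: Tmem119, Siglech, Fcrls, Olfml3, Sparc, Slc2a5, Crybb1, Selplg and Golm1. The members were chosen by symbol, and each symbol was found on 1 Ensembl gene identifier among the 25904 genes of the deposited expression table. All 9 passed the filter on low values and are among the 12519 genes tested. Their levels in WT microglia served as the check of the label: all 3 WT microglia libraries held between 343 and 10051 normalized counts of each member.

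RNA was sequenced from 12 libraries of sorted mouse cells on the C57BL/6 strain, 3 in each of 4 groups. WT microglia came from Tgfbr2fl/fl mice without Cre, and KO microglia from Cx3cr1CreER/+Tgfbr2fl/fl mice, in which tamoxifen removes the floxed part of Tgfbr2 from cells that express Cx3cr1. Both received 3 daily subcutaneous injections of 5 mg tamoxifen, and cells were taken from brain and spinal cord 18 to 22 days afterwards. WT and KO macrophages descended from bone marrow of the same 2 genotypes, transplanted into irradiated Cx3cr1CreER/+R26DTA/+ hosts. Tamoxifen, given 6 weeks after the transplant, turned on diphtheria toxin in the hosts' own microglia, and the cells that refilled the central nervous system (CNS) were sorted 18 to 22 days later. Each library pooled 1 to 5 mice. The groups have several limits as models. The KO cells also lack 1 working allele of Cx3cr1, the hosts of the macrophages were irradiated, and CreER acts in every cell with Cx3cr1. All cells were Ly6C-negative and CD11b-positive, but WT cells were gated as F4/80 low and KO cells as F4/80 high, so that gate and genotype cannot be told apart.

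Microglia are the resident macrophages of the CNS and arise from yolk sac progenitors, whereas macrophages that enter an emptied niche after transplantation arise from bone marrow. TGF-beta binds its type II receptor, encoded by Tgfbr2, which activates the type I receptor, encoded by Tgfbr1, and thereby the SMAD transcription factors. TGF-beta in the CNS is known to be needed for the resting state of mouse microglia that this signature marks. Tmem119 encodes a transmembrane protein used to tell microglia from other macrophages, Siglech a sialic acid-binding lectin, Fcrls an Fc receptor-like scavenger receptor and Selplg the selectin ligand PSGL-1. Olfml3 and Sparc encode secreted glycoproteins, Slc2a5 a fructose transporter, Golm1 a Golgi membrane protein and Crybb1 a beta-crystallin first known from the lens.

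The members lie on 6 chromosomes (GRCm38, GENCODE mouse release M21 annotation). Tmem119 (ENSMUSG00000054675) spans chr5:113793729-113800516 and Selplg (ENSMUSG00000048163) spans chr5:113818536-113832644, both on the minus strand, and Crybb1 (ENSMUSG00000029343) spans chr5:112255815-112269585 on the plus strand. Fcrls (ENSMUSG00000015852, chr3:87250758-87263738) and Olfml3 (ENSMUSG00000027848, chr3:103722222-103738001) share chromosome 3 and the minus strand. Slc2a5 (ENSMUSG00000028976) spans chr4:150119283-150144169 and Siglech (ENSMUSG00000051504) spans chr7:55768178-55778925, both on the plus strand. Sparc (ENSMUSG00000018593, chr11:55394500-55423183) and Golm1 (ENSMUSG00000021556, chr13:59634626-59675811) are on the minus strand. In that annotation Golm1 alone overlaps another gene of the table, Naa35 on the opposite strand.

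The RefSeq promoter table (GRCm38.p6) held 7 of the 9 members, Tmem119 and Selplg being the other two. The 250 bases upstream of the start are shown for 5 members that span the expression patterns: Fcrls, which was not called between WT cells of the 2 origins, Siglech and Olfml3, which WT macrophages expressed in part, and Slc2a5 and Crybb1, which were low outside WT microglia. Capitals mark the SMAD box CAGAC and the ETS core GAGGAA of PU.1-type sites, on either strand (GTCTG and TTCCTC on the reverse).
Fcrls (chr3:87263525-87263774, minus strand): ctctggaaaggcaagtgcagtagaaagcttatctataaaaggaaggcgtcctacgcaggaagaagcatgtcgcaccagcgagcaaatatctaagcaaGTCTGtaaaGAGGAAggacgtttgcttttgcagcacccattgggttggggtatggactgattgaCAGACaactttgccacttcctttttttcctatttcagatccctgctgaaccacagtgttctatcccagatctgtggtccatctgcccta
Siglech (chr7:55767934-55768183, plus strand): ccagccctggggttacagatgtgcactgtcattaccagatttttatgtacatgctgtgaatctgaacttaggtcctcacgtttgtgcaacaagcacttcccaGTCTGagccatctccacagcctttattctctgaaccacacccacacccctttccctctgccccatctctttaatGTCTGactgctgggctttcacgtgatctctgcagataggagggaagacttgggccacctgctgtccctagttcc
Olfml3 (chr3:103738002-103738251, minus strand): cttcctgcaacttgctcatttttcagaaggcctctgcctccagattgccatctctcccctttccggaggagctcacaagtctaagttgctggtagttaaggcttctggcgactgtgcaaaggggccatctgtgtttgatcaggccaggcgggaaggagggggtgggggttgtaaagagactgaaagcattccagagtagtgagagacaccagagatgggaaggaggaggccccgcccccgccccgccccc
Slc2a5 (chr4:150119094-150119343, plus strand): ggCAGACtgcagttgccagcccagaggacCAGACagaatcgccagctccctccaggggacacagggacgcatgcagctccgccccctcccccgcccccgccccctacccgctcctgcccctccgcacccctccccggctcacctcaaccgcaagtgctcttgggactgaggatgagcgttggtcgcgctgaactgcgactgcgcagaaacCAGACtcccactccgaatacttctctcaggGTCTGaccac
Crybb1 (chr5:112255570-112255819, plus strand): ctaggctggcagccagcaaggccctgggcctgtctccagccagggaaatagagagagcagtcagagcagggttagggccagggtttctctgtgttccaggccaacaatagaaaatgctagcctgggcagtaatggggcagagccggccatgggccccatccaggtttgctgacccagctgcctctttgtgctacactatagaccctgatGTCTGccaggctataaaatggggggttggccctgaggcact
CAGAC occurred in 6 of the 7 member promoters, with 4 copies in Slc2a5, 2 each in Fcrls and Siglech, 1 each in Crybb1, Sparc and Golm1, and none in Olfml3. It is a short motif, present in 42.2% of all 32851 promoters of the same length. GAGGAA occurred in 1 of the 7, that of Fcrls, and in 23.3% of all promoters. The TATAAA box stood in the promoters of Fcrls, Crybb1 and Golm1 and in 12.4% of all, the MAF half-site TGCTGA in those of Fcrls, Crybb1 and Sparc and in 16.1% of all, and the RUNX motif TGTGGT in those of Fcrls and Siglech and in 14% of all. The C/EBP motif TTGCNNAA (9.56% of all) and the E-box CACGTG (6.02%) stood in the promoter of Siglech alone among the 7. The longer PU.1 motif GAGGAAGT (2.44% of all), the SMAD palindrome GTCTAGAC (0.167%), the AP-1 motif TGANTCA (6.75%), the IRF motif GAAANNGAA (7.13%) and the MEF2 core TATTTATA (1.56%) were in none of them. Such matches describe letters in a window and not bound sites. The windows of Fcrls and Slc2a5 begin 75 and 61 bases from the nearest annotated start of GENCODE, those of the other five members at most 5 bases from it. GC content was 46.8% in Fcrls, 50.8% in Siglech and 66.4% in Slc2a5, around a median of 52.4% over all promoters.

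The depth of the libraries ran from 2615404 to 6364994 gene reads, so that a single read equalled 0.718 to 1.6 normalized counts. KO macrophage replicate 1 was the shallowest. Tgfbr2 reads, counted over the whole gene including parts that Cre does not remove, were lower in KO microglia (log2 difference -0.40 ± 0.10 SE, limma adjusted p = 0.00515) and in KO macrophages (-0.56 ± 0.10, limma adjusted p = 0.000608). Adgre1, which encodes the gated antigen F4/80, was higher in KO microglia (1.46 ± 0.09, limma adjusted p = 3.59e-09) and in KO macrophages (0.55 ± 0.09, limma adjusted p = 0.000336). Itgam, which encodes CD11b, was lower in KO microglia (-2.29 ± 0.22, limma adjusted p = 5.7e-07) and in KO macrophages (-0.92 ± 0.22, adjusted p = 0.00582). Cx3cr1, of which KO cells carry 1 working allele, was lower as well (-5.34 ± 0.15, limma adjusted p = 2.55e-13, and -2.45 ± 0.15, adjusted p = 1.29e-08). Ddx3y, on the Y chromosome, was at 470 to 508 in all 3 KO microglia libraries. It was at 436 in WT microglia replicate 3, 653.5 in WT macrophage replicate 3 and 540 in KO macrophage replicate 2, and at most 8.90 in the other libraries. By this Y-linked gene, all KO microglia libraries held male cells, whereas among WT microglia only replicate 3 did. Sex and genotype were thus partly confounded in microglia. A fit with Ddx3y as a covariate called the same number of members in each comparison.

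All 9 signature genes were lower in KO than in WT microglia, and all 9 were also lower in KO than in WT macrophages. In microglia the median log2 difference of the 9 was -7.49, against -0.01 over all 12519 tested genes, and limma called 20.6% of all tested genes lower (adjusted p of 0.05 or less). In macrophages the median was -2.47, against 0.00 over all tested genes, of which 15.4% were called lower. Every KO library was below every WT library for all 9 in both origins, which held for 27.8% of all tested genes in microglia and 22.8% in macrophages. In WT cells, 8 of the 9 were lower in macrophages than in microglia (median -2.19; 20.2% of all tested genes were called lower), with Fcrls not called. In KO cells, 3 were higher in macrophages (Tmem119, Olfml3 and Golm1; 5.45% of all were called higher), 1 was lower (Siglech; 5.05% of all were called lower) and 5 were not called. The fall in KO cells was smaller in macrophages than in microglia for 8 of the 9 members, tested as the difference of the KO effects. That difference was called in this direction for 13% of all tested genes. For Tmem119, Sparc, Slc2a5 and Crybb1, complete loss of the WT macrophage level would still be a smaller fall than that in microglia. Their direction was thus fixed in advance, by a narrow margin for Tmem119. Differences were taken between log2 values with 1 added to each normalized count, and are too small for genes with few reads. A bulk library cannot tell fewer expressing cells from less RNA per cell, so every level below is a mean over the sorted cells.

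**Figure D1:**
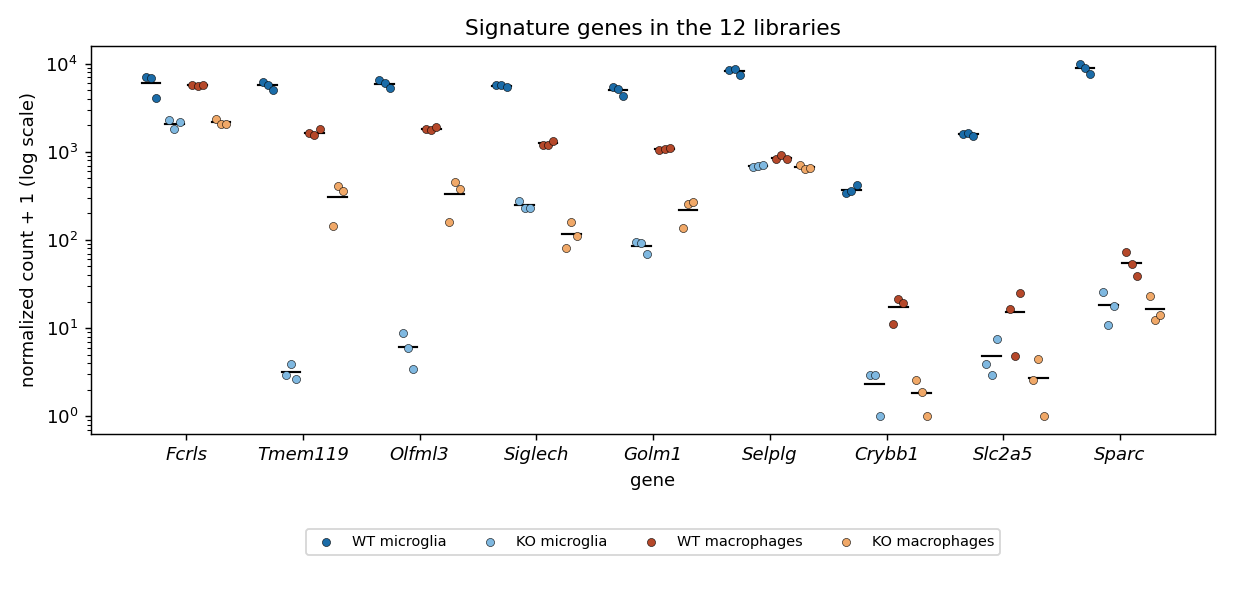
Normalized count + 1 (log axis) of the 9 signature genes in each of the 12 libraries, coloured by group, with a black bar at each group mean. WT microglia are highest or, for Fcrls, overlap with WT macrophages, and KO microglia have 1.61 to 2.95 normalized counts of Tmem119.

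Among the surface proteins, Tmem119 had the largest fall in microglia, and Siglech in macrophages. WT microglia held 6265, 5734 and 5043 normalized counts (5681 ± 613, mean ± SD, n = 3), and KO microglia 1.96, 2.95 and 1.61 (2.17 ± 0.695), which is 7 reads in the 3 KO libraries together. WT macrophages held 1629, 1540 and 1797 (1655 ± 130) and KO macrophages 144, 412 and 363 (306 ± 143). The 4 groups did not overlap, in the order WT microglia, WT macrophages, KO macrophages, KO microglia. The log2 difference between KO and WT was -10.82 ± 0.28 (SE) in microglia (limma adjusted p = 1.38e-13) and -2.57 ± 0.28 in macrophages (adjusted p = 6.3e-06). WT macrophages thus stood at 29.1% of the mean of WT microglia (log2 difference -1.78 ± 0.28, limma adjusted p = 0.000128). Among KO cells the order was the opposite one, with macrophages 6.48 ± 0.28 above microglia (limma adjusted p = 1.41e-09).

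Siglech, whose product pairs with the adaptor DAP12, stood at 4.37% of its WT microglia level in KO microglia and at 2.07% in KO macrophages. WT microglia held 5781, 5759 and 5392 normalized counts (5644 ± 218.3), against 279, 231 and 231 after KO (247 ± 27.7). WT macrophages held 1206, 1205 and 1332 (1247 ± 72.9), while their KO counterparts held 80.0, 161 and 111 (117.1 ± 40.6). Again no 2 groups overlapped, but here KO macrophages were the lowest. KO cells were lower by a log2 difference of -4.51 ± 0.17 in microglia (limma adjusted p = 1.18e-11) and of -3.46 ± 0.17 in macrophages (adjusted p = 1.91e-09). KO macrophages were below KO microglia by -1.12 ± 0.17 (limma adjusted p = 0.000392), the one member called in that direction. WT macrophages were at 22.1% of WT microglia (-2.18 ± 0.17, limma adjusted p = 9.59e-08).

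Fcrls differed by genotype but not detectably by origin. WT microglia held 6999, 6969 and 4079 normalized counts (6015 ± 1677) and WT macrophages 5667, 5630 and 5806 (5701 ± 92.5). KO microglia held 2296, 1817 and 2157 (2090 ± 246) and KO macrophages 2329, 2092 and 2058 (2160 ± 147). Every KO library was below every WT library, and within a genotype the 2 origins overlapped. The KO effect was -1.49 ± 0.16 in microglia (limma adjusted p = 1.92e-06) and -1.40 ± 0.16 in macrophages (adjusted p = 9.75e-06). These effects differed by 0.09 ± 0.23, with a 95% interval of -0.40 to 0.57 (limma adjusted p = 0.824). Between origins the interval was -0.38 to 0.31 in WT cells (limma adjusted p = 0.889) and -0.29 to 0.40 in KO cells (adjusted p = 0.891). The WT comparison depended on WT microglia replicate 3, the lowest of its group. Without that library WT macrophages were lower by -0.29 (limma adjusted p = 0.0355), and after quantile normalization of all 12 libraries they were higher by 0.42 (adjusted p = 0.0426).

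Selplg was high in WT microglia and at a similar lower level in all other groups. WT microglia held 8450, 8685 and 7545 normalized counts (8227 ± 602). KO microglia held 666, 686 and 711 (688 ± 22.4), WT macrophages 832, 925 and 826 (861 ± 55.8), and KO macrophages 714, 636 and 662 (671 ± 39.6). No library outside WT microglia passed 925, and the KO groups of both origins overlapped. KO microglia, WT macrophages and KO macrophages stood at 8.36%, 10.5% and 8.15% of WT microglia. The log2 difference between KO and WT was -3.58 ± 0.08 in microglia (limma adjusted p = 2.85e-14) but -0.36 ± 0.08 in macrophages (adjusted p = 0.00315), where KO libraries averaged 77.9% of WT. KO macrophages and KO microglia differed by -0.04, with a 95% interval of -0.21 to 0.13 (limma adjusted p = 0.838).

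Of the secreted proteins, Olfml3 resembled Tmem119 in every group. WT microglia held 6597, 5973 and 5260 normalized counts (5943 ± 669), against 7.86, 4.92 and 2.41 after KO (5.06 ± 2.73, 16 reads in all). WT macrophages held 1808, 1784 and 1928 (1840 ± 77.3) and KO macrophages 156.9, 457 and 382 (332 ± 156). The groups followed one another without overlap in the same order as for Tmem119. KO minus WT was -10.04 ± 0.34 in microglia (limma adjusted p = 2.48e-12) and -2.60 ± 0.34 in macrophages (adjusted p = 3.11e-05). Macrophages minus microglia was -1.69 ± 0.34 in WT cells (limma adjusted p = 0.000945) and 5.75 ± 0.34 in KO cells (adjusted p = 3.05e-08). Over the 12 libraries the log2 profiles of Olfml3 and Tmem119, each centred on its own mean, lay 0.41 apart (root mean square), the smallest distance of any 2 members.

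Sparc, a collagen-binding matricellular glycoprotein, was high in WT microglia and low in macrophages of either genotype. WT microglia held 10051, 8910 and 7750 normalized counts (8904 ± 1150) and WT macrophages 72.8, 52.1 and 37.9 (54.3 ± 17.6), which is 0.609% of WT microglia. KO microglia held 24.6, 9.83 and 16.9 (17.1 ± 7.36) and KO macrophages 22.4, 11.3 and 12.9 (15.6 ± 5.98). The KO groups overlapped, and WT macrophages lay above both. WT macrophages were below WT microglia by -7.37 ± 0.30 on the log2 scale (limma adjusted p = 6.07e-11), the largest such difference of the 9. KO minus WT was -9.02 ± 0.30 in microglia (limma adjusted p = 2.61e-12) and -1.75 ± 0.30 in macrophages (adjusted p = 0.000469). In KO cells the origins differed by -0.10, with a 95% interval of -0.75 to 0.55 (limma adjusted p = 0.889).

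Slc2a5, the fructose transporter GLUT5, was also high in WT microglia and low elsewhere. WT microglia held 1586, 1634 and 1508 normalized counts (1576 ± 63.4), and KO microglia 2.95, 1.97 and 6.43 (3.78 ± 2.35, 13 reads in all). WT macrophages held 15.5, 3.81 and 23.9 (14.4 ± 10.1), which was 0.913% of WT microglia, and KO macrophages 1.60, 3.49 and 0 (1.70 ± 1.75, 5 reads in all). WT microglia stood alone, and replicate 2 of the WT macrophages overlapped with KO microglia. KO minus WT was -8.47 ± 0.59 in microglia (limma adjusted p = 1.14e-08) and -2.47 ± 0.59 in macrophages (adjusted p = 0.00505). In macrophages the adjusted p was 0.0504 when limma was fitted to these 2 groups alone. The difference between KO macrophages and KO microglia was -0.97, with a 95% interval of -2.22 to 0.29 (limma adjusted p = 0.361).

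Golm1, the Golgi membrane protein, had the same order of groups as Tmem119 and Olfml3. WT microglia held 5464, 5149 and 4322 normalized counts (4978 ± 590) and KO microglia 93.3, 91.4 and 67.5 (84.1 ± 14.4). WT macrophages held 1062, 1082 and 1106 (1083 ± 22.0), at 21.8% of WT microglia, and KO macrophages 136, 257 and 266 (219 ± 72.4). No groups overlapped. KO minus WT was -5.88 ± 0.20 in microglia (limma adjusted p = 2.86e-12) and -2.36 ± 0.20 in macrophages (adjusted p = 4.12e-07). KO macrophages were above KO microglia by 1.33 ± 0.20 (limma adjusted p = 0.000318), and WT macrophages below WT microglia by -2.19 ± 0.20 (adjusted p = 4.17e-07). Reads of Golm1 and of the overlapping Naa35 cannot be told apart if strand was not used in counting, and Naa35 averaged 394 in WT microglia, 155 in its KO counterpart, 160 in WT macrophages and 134 in the KO ones.

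Crybb1, the crystallin, likewise stood apart in WT microglia. Its normalized counts were 343, 354 and 421 there (373 ± 42.4) and 1.96, 1.97 and 0 in KO microglia (1.31 ± 1.13, 4 reads in all). WT macrophages held 10.0, 20.3 and 18.1 (16.2 ± 5.43), at 4.33% of WT microglia, and KO macrophages 1.60, 0.873 and 0 (0.824 ± 0.801, 2 reads in all). The KO groups overlapped, and both WT groups lay above them. KO minus WT was -7.49 ± 0.48 in microglia (limma adjusted p = 4.67e-09). In macrophages it was -3.28 ± 0.48 (limma adjusted p = 0.000104), where 49 reads in WT stood against 2 in KO, a depth-corrected ratio of 25.0 with an exact 95% counting interval of 6.56 to 212. This interval covers counting error alone, because the reads carry no molecular identifiers and may be copies of one molecule. WT macrophages were below WT microglia by -4.50 ± 0.48 (limma adjusted p = 2.51e-06), and KO cells of the 2 origins differed by -0.28, with a 95% interval of -1.31 to 0.75 (adjusted p = 0.783).

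**Figure D2:**
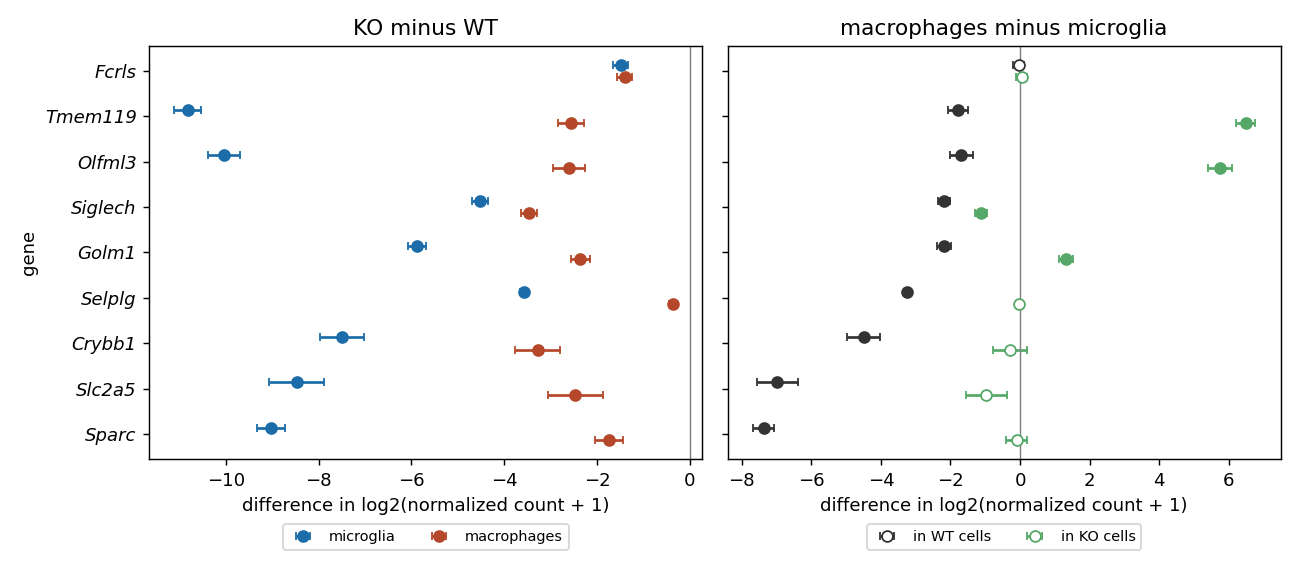
Log2 differences (points) with their limma standard errors (bars) for each signature gene, KO minus WT on the left and macrophages minus microglia on the right. Filled points passed an adjusted p of 0.05: all 18 on the left, and in KO cells on the right only Tmem119 (6.48), Olfml3 (5.75), Golm1 (1.33) and Siglech (-1.12).

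Placed on one scale, the members fell in an uneven order in WT macrophages. Fcrls was at 94.8% of its level in WT microglia, Olfml3 at 31.0%, Tmem119 at 29.1%, Siglech at 22.1%, Golm1 at 21.8%, Selplg at 10.5%, Crybb1 at 4.33%, Slc2a5 at 0.913% and Sparc at 0.609%. In KO microglia the order was another one, with Fcrls at 34.7%, Selplg at 8.36%, Siglech at 4.37%, Golm1 at 1.69% and the other 5 between 0.0383% (Tmem119) and 0.351% (Crybb1). In KO macrophages Fcrls was at 35.9%, Selplg at 8.15%, Olfml3 at 5.59%, Tmem119 at 5.39%, Golm1 at 4.41%, Siglech at 2.07% and Slc2a5, Sparc and Crybb1 at 0.108% to 0.221%. Tmem119 and Olfml3 were thus the lowest members in KO microglia but not in KO macrophages. Selplg and Fcrls were the highest in both KO groups.

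Levels were also divided by the kilobases of annotated exon, merged over all transcripts of a gene. Which transcripts were expressed was not determined, so the order of genes depends in part on the annotation. Olfml3 has 6161 such bases and Fcrls 2334, at similar counts in WT microglia (5943 and 6015). On this scale WT microglia held most Fcrls (2577 normalized counts per kb), then Tmem119 (2454), Sparc (2351), Selplg (1926), Siglech (1668), Golm1 (1125), Olfml3 (965), Slc2a5 (463) and Crybb1 (378). Fcrls, Tmem119 and Sparc differed by less than the SD of Fcrls between replicates. In WT macrophages Fcrls led with 2443 per kb, ahead of Tmem119 with 715, and Crybb1, Sparc and Slc2a5 held 16.4, 14.3 and 4.23. KO microglia held 895 of Fcrls, 161 of Selplg, 73.0 of Siglech, 19.0 of Golm1 and at most 4.51 of the rest. KO macrophages held 925 of Fcrls, 132 of Tmem119, 53.9 of Olfml3, 49.6 of Golm1 and 34.6 of Siglech, with Selplg second to Fcrls as in KO microglia.

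The smaller fall in macrophages was tested directly as the difference of the KO effects, macrophages minus microglia. It was 8.26 ± 0.40 for Tmem119 (limma adjusted p = 1.15e-09), 7.43 ± 0.48 for Olfml3 (adjusted p = 2.95e-08) and 7.27 ± 0.43 for Sparc (adjusted p = 1.1e-08). It was 6.01 ± 0.83 for Slc2a5 (limma adjusted p = 7.72e-05), 4.21 ± 0.68 for Crybb1 (adjusted p = 0.000311) and 3.52 ± 0.28 for Golm1 (adjusted p = 3.51e-07). For Selplg it was 3.22 ± 0.11 (limma adjusted p = 3.5e-11) and for Siglech 1.06 ± 0.24 (adjusted p = 0.0051). The levels in WT macrophages differed among these members: Sparc, Slc2a5 and Crybb1 averaged 14.4 to 54.3 normalized counts there, and Tmem119, Olfml3, Golm1 and Siglech 1083 to 1840. On this scale a fall to 0 from the WT macrophage level is at most 5.74 for Sparc, 3.65 for Slc2a5 and 4.04 for Crybb1, less than their falls in microglia (9.02, 8.47 and 7.49). For these genes the direction of the difference was therefore fixed by the low WT macrophage level, and the test does not compare the responses. Tmem119 could fall by 10.69 at most in macrophages, slightly less than its fall of 10.82 in microglia, so its direction was fixed as well. It fell by 2.57 in macrophages, far short of that limit. Fcrls, with a difference of 0.09 ± 0.23, was the member that was not called.

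The levels of 8 genes listed as marks of microglial origin were set beside those of the signature. The list was chosen with earlier results of these data known. In KO microglia 7 of the 8 were called lower, as were 20.6% of all tested genes. Most of the 8 thus changed with genotype as well as with origin. Sall1, Sall3, Upk1b, Lrrc3, Adgrg1 and Nav3 are also counted among the 44 other homeostatic genes below. In WT macrophages, Sall1, a transcription factor of microglia, stood at 11.8, 7.63 and 2.47 normalized counts against 6490, 6650 and 5941 in WT microglia, which is 0.115%. Bmpr1a stood at 0.405% and Upk1b at 0.115% of WT microglia, Sall3 at 0.188%, Adgrg1 at 0.513%, Nav3 at 0.963% and Slc1a3 at 1.52%, while Lrrc3 stood at 24.6%. Sall1 was at 0.180% and Bmpr1a at 0.429% in KO macrophages, where Tmem119 stood at 5.39%. The 8 markers together summed to 15152 to 17360 (WT) and 722 to 776 (KO) in microglia and 229 to 345 (WT) and 80.3 to 116.9 (KO) in macrophages. Bmpr1a is the marker that KO microglia kept, at 114% of WT microglia (log2 difference 0.19 ± 0.34, limma adjusted p = 0.706), whereas Sall1 fell by 4.23 ± 0.39 (adjusted p = 2.66e-07). Over the 8 markers the range was 0.115% to 24.6% in WT macrophages and 0.0658% to 6.28% in KO macrophages, with Lrrc3 the highest in each. Tmem119, Olfml3, Siglech and Golm1 stood at 21.8% to 31.0% (WT) and 2.07% to 5.59% (KO).

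**Figure D3:**
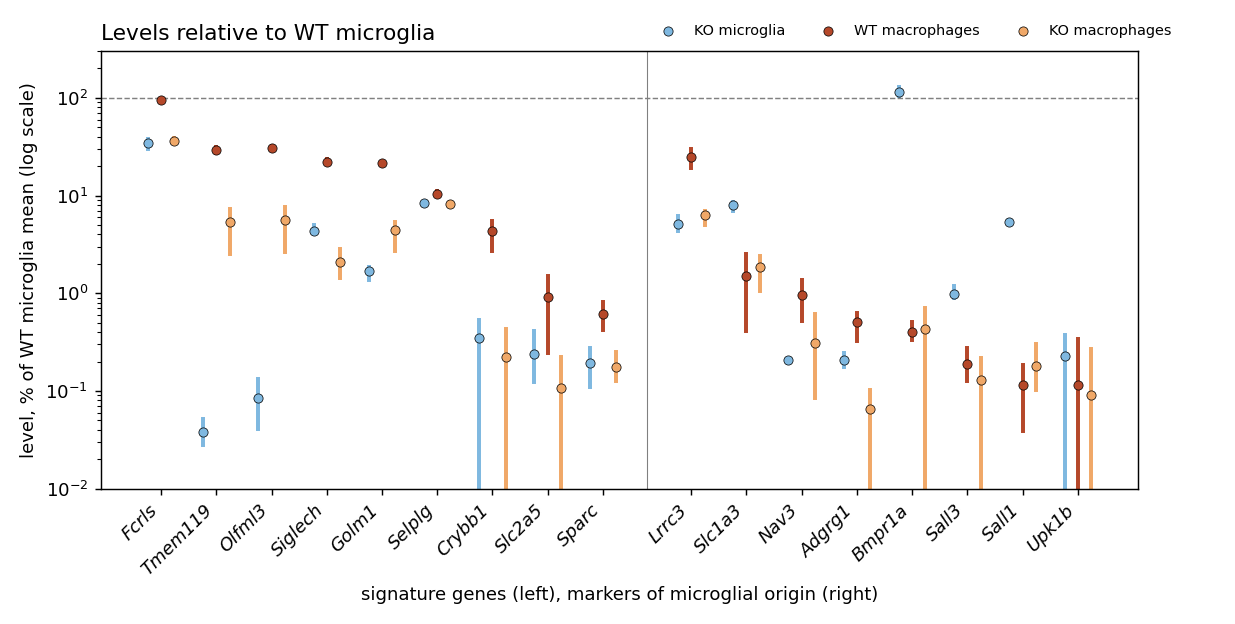
Level in KO microglia, WT macrophages and KO macrophages as a percent of the WT microglia mean (log axis) for the 9 signature genes (left) and 8 genes listed as markers of microglial origin (right). Points are means, bars run from the lowest to the highest of 3 libraries, and bars that reach the lower edge include libraries at 0; WT macrophages had 29.1% of Tmem119 but 0.115% of Sall1.

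Markers of other cells moved with the groups as well. The summed level of 12 markers of border-associated macrophages, such as Mrc1 and Pf4, was 2945 to 3545 (WT) and 38582 to 42719 (KO) in microglia and 14823 to 17429 (WT) and 35733 to 40946 (KO) in macrophages. This sum was lowest in WT microglia, where the signature was highest, and Cd209f was at 0 there. The sum of 8 astrocyte markers was 52.9 to 120 (WT) and 223 to 285 (KO) in microglia and 44.6 to 68.6 (WT) and 144 to 186 (KO) in macrophages. For 12 vessel markers the sums were 405 to 489, 157.1 to 180, 207 to 239 and 155 to 282 in that order of groups. The sum of 8 neuron markers was 14.1 to 25.8, 116 to 155, 35.5 to 58.5 and 83.3 to 160, and that of 9 monocyte markers 46.6 to 59.3, 128 to 175, 174 to 219 and 170 to 356. For 9 oligodendrocyte markers the sums were 423 to 431, 502 to 579, 341 to 368 and 378 to 658, and for 11 lymphocyte markers 1118 to 1203, 983 to 1006, 847 to 901 and 717 to 888. The part of these cells in the differences of the 9 genes was not tested.

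KO macrophage replicate 1 was the lowest library of its group in Tmem119, Olfml3, Golm1 and Siglech, at 144 against 363 to 412 for Tmem119. It was also the lowest in these genes that TGF-beta is known to induce, though not in every such gene measured: Pmepa1, at 158 against 586 and 486 in the others, Skil, at 477 against 973 and 883, and Smad7, at 64.0 against 92.5 and 99.1. Other members were highest there: Fcrls (2329 against 2092 and 2058), Selplg (714 against 636 and 662) and Sparc (22.4 against 11.3 and 12.9). Crybb1 was so too, at very few reads (1.60 against 0.873 and 0), and Slc2a5 lay between the other libraries (1.60 against 3.49 and 0). Leaving out this library ended no call of any of the 9 members.

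Relatives of the members from the same gene families did not follow them in a uniform way. Of 7 tested Siglec genes, 5 were called lower and 2 higher in KO microglia, against 20.6% and 21.9% of all tested genes. Cd33 fell in KO microglia (2409 to 643, log2 difference -1.90 ± 0.09, limma adjusted p = 2.49e-10) and, unlike Siglech, was not called between WT origins (adjusted p = 0.591). Siglec1, a receptor of border and peripheral macrophages, rose from 30.3 to 1680 (5.77 ± 0.14, limma adjusted p = 5.88e-14) and reached 5035 in KO macrophages. Cd22 rose from 43.1 to 710 in microglia (4.05 ± 0.18, limma adjusted p = 8.99e-11) and from 80.7 to 487 in macrophages. Siglecf was lower in KO cells of both origins (limma adjusted p = 5.77e-07 in microglia and 0.00113 in macrophages), at 115 in WT microglia, 2.89 in KO microglia and 5.20 in WT macrophages, with 0 reads in KO macrophages.

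Fcrl1, the tested relative of Fcrls and also on chromosome 3, 112648 bases away, also differed by genotype and not detectably by origin. It averaged 197 (WT) and 75.3 (KO) in microglia and 236 (WT) and 93.4 (KO) in macrophages. KO minus WT was -1.38 ± 0.18 in microglia (limma adjusted p = 1.72e-05) and -1.34 ± 0.18 in macrophages (adjusted p = 5.46e-05), and neither origin comparison was called (adjusted p = 0.272 in WT and 0.349 in KO). Whether reads of similar sequence were shared between these genes in counting is not given in the sources used here.

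Olfml2b, an olfactomedin relative of Olfml3, held 205, 3.24, 106 and 27.1 normalized counts over the groups (microglia WT and KO, then macrophages WT and KO). It was lower in KO microglia (-5.70 ± 0.36, limma adjusted p = 4.08e-09), lower in KO macrophages (-1.97 ± 0.36, adjusted p = 0.000753) and higher in KO macrophages than in KO microglia (2.83 ± 0.36, adjusted p = 7.64e-05), as was Olfml3. The other tested relative, Olfm1, was higher in KO microglia (3.02 to 34.7) and in KO macrophages (17.8 to 56.7). Among 5 tested sugar transporters of the Slc2a family, the glucose transporter Slc2a1 fell in KO microglia (190 to 40.1, -2.22 ± 0.24, limma adjusted p = 1.96e-06) and Slc2a3 rose (34.2 to 183, 2.39 ± 0.22, adjusted p = 3.76e-07). Slc2a6, Slc2a8 and Slc2a9 were not called there, where 20.6% of all tested genes were called lower and 21.9% higher. Sparcl1, the closest relative of Sparc in the table, was not called in KO microglia (31.7 in WT, 56.4 in KO).

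PSGL-1 binds selectins only when modified by sulfotransferases and glycosyltransferases. Of 7 tested genes for such enzymes, 4 were lower and 3 higher in KO microglia, against 20.6% and 21.9% of all tested genes. Gcnt1, which builds the core of the selectin-binding glycan, fell from 1191 to 278 (-2.09 ± 0.12, limma adjusted p = 9.57e-10), and the sialyltransferase gene St3gal6 fell from 1389 to 779 (-0.83 ± 0.09, adjusted p = 1.78e-06). The tyrosine sulfotransferase gene Tpst2 fell from 522 to 197 (-1.40, limma adjusted p = 6.05e-09), as did the galactosyltransferase gene B4galt1 (817 to 335, -1.28 ± 0.10, adjusted p = 3.6e-08). The other sulfotransferase gene, Tpst1, rose from 36.6 to 148.8 (1.999 ± 0.19, limma adjusted p = 5.02e-07), and St3gal4 rose from 40.6 to 80.4 (0.98 ± 0.19, adjusted p = 0.000669), as did Fut4 (20.7 to 46.9). Of 8 tested Golgi genes listed with Golm1, 3 were lower and 2 higher in KO microglia. Beside 20.6% and 21.9% of all tested genes, such small counts are not read as a trait of this list. Among the lower ones, Casc4 fell from 116 to 1.91 (-5.70 ± 0.73, limma adjusted p = 1.13e-05), beside -5.88 for Golm1. Casc4 averaged 1.425 in WT and 3.18 in KO macrophages and, unlike Golm1, was not called between them (limma adjusted p = 0.657).

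Tmem119 and Selplg are direct neighbours on chromosome 5, in the same orientation, 18019 bases apart. WT macrophages had 29.1% of Tmem119 but 10.5% of Selplg, and KO microglia 0.0383% and 8.36%. Beyond them, Iscu on the side of Tmem119 was lower in KO microglia (90.3 to 36.3, log2 difference -1.31, limma adjusted p = 0.00067), and Coro1c on the side of Selplg was not called (297 and 330, adjusted p = 0.23). Crybb1 has another crystallin gene, Cryba4, 3296 bases away on the opposite strand. Cryba4 held 64.7, 12.3, 22.1 and 6.96 normalized counts in WT microglia, KO microglia, WT macrophages and KO macrophages, and its difference between KO and WT microglia was -2.39 ± 0.36 (limma adjusted p = 6.39e-05), beside -7.49 for Crybb1. Tpst2, one of the enzyme genes above, is the neighbour on the other side of Crybb1, 7105 bases away. Next to Siglech, Tubgcp5 was lower in KO microglia (-0.88, limma adjusted p = 1.19e-07) and in KO macrophages (-0.91, adjusted p = 2.99e-07). Atox1 beside Sparc was not called in KO microglia (0.21, limma adjusted p = 0.385), and Agtpbp1 beside Golm1 was higher (0.65, adjusted p = 0.00524).

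The genes whose profiles over the 12 libraries lay closest to each member were sought among 6618 tested genes, with the root mean square distance between centred log2 profiles as the measure. The libraries share their group means, so a small distance mostly describes the 4 groups. Fcrls was nearest to Peli2 (0.18) and Bach2 (0.22), Selplg to Cst3 (0.29) and Klhdc8b (0.37), Siglech to Col27a1 (0.35) and Rtn4rl1 (0.50), and Golm1 to Asap3 (0.36) and Cx3cr1 (0.43). Sparc was nearest to Nav3 (0.57) and Ecscr (0.83), Crybb1 to Serpine2 (0.84) and Atp8a2 (0.97), and Slc2a5 to Mrc2 (0.92) and Nav3 (0.99). Tmem119 and Olfml3 had the same pair, Lhfpl2 (0.97 and 0.78) and F11r (1.01 and 0.72). Lhfpl2 averaged 1075 (WT) and 2.77 (KO) in microglia and 1077 (WT) and 160 (KO) in macrophages. The mean profile of the 9 was nearest to Mlxipl (0.55), Cdh23 (0.56), Asap3 (0.59), P2ry12 (0.59) and Dusp27 (0.65). Among the members, Siglech and Golm1 lay 0.88 apart, as did Sparc and Slc2a5, and Tmem119 and Fcrls lay farthest apart (3.55).

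A further 44 genes often listed as homeostatic in microglia were compared with the 9. In KO microglia 38 of the 44 were lower, 1 was higher (Gas6) and 5 were not called (C1qa, C1qb, C1qc, P2ry6 and Tyrobp), with a median of -2.51 against -7.49 for the 9 signature genes. In KO macrophages 28 were lower, 7 were higher (among them C1qa, C1qb, C1qc, Gas6, P2ry6 and Tyrobp) and 9 were not called, with a median of -0.70 against -2.47. Among all tested genes, 16% were called higher in KO macrophages and 21.9% in KO microglia, so that 7 of 44 is near the background. The shares called lower were 20.6% in KO microglia and 15.4% in KO macrophages. In WT cells 39 of the 44 were lower in macrophages (20.2% of all tested genes) and none was higher. The difference of the KO effects was called higher for 40 (13% of all tested genes). For some, such as Ecscr and Sall3 (2.79 and 1.88 normalized counts in WT macrophages), that low level fixed the direction. How many of the 40 this covers was not determined. P2ry12, the purinergic receptor of resting microglia, averaged 12319 (WT) and 298 (KO) in microglia and 1353 (WT) and 423 (KO) in macrophages. Between KO origins, 9 of the 44 were higher in macrophages, 8 were lower and 27 were not called (median 0.04). Of all tested genes, 5.45% were called higher there and 5.05% lower. P2ry12 was among the higher ones (0.51 ± 0.12, limma adjusted p = 0.00882), and Sall1 (-4.90 ± 0.39, adjusted p = 7.95e-07) and Lag3 (-1.63 ± 0.15, adjusted p = 2.87e-06) were among the lower ones. The KO microglia difference was -9.18 ± 0.63 for Ecscr, -8.76 ± 0.46 for Nav3, -8.68 ± 0.43 for Adgrg1 and -7.74 ± 0.29 for Serpine2 (limma adjusted p at most 9.92e-09), beside -9.02 for Sparc, -8.47 for Slc2a5 and -7.49 for Crybb1. Gas6, a ligand of phagocytic receptors, rose from 511 to 2653 in microglia (2.40 ± 0.14, limma adjusted p = 1.06e-09).

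**Figure D4:**
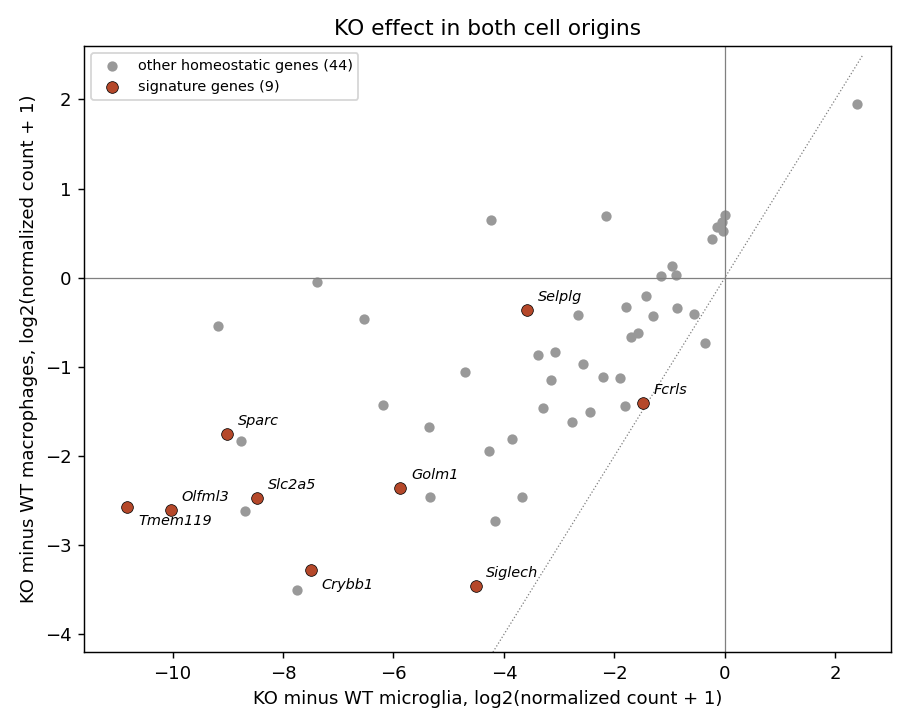
KO minus WT in microglia (horizontal) against KO minus WT in macrophages (vertical), both in log2(normalized count + 1), for the 9 signature genes (red, named) and 44 other homeostatic genes (grey). The dotted line marks equal effects; Fcrls lies next to it (-1.49 and -1.40), Tmem119 farthest to its left (-10.82 and -2.57), and the grey point at upper right is Gas6.

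Of 17 tested genes of the TGF-beta pathway and its feedback targets, 12 were lower and 1 higher (Nrros) in KO microglia. Of all tested genes, 20.6% were called lower and 21.9% higher there. In KO macrophages 12 were lower and 2 higher (Nrros and Tgfb1), against 15.4% and 16% of all tested genes. The 12 lower genes include Tgfbr2 in both origins, the deleted gene itself, whose fall was set by the design. Pmepa1, a feedback inhibitor, held 1655 (WT) and 35.6 (KO) normalized counts in microglia, and 3557 (WT) and 410 (KO) in macrophages. Like Tmem119, Olfml3 and Golm1, it was higher in KO macrophages than in KO microglia (3.29 ± 0.32, limma adjusted p = 6.6e-06), as were Tgfbr1 (1.79 ± 0.13, limma adjusted p = 3.21e-07) and Smad7 (0.86 ± 0.18, adjusted p = 0.00457). Unlike them, Pmepa1 was higher in macrophages among WT cells too (1.11 ± 0.32, limma adjusted p = 0.013). Between KO origins, 8 of the 17 were higher in macrophages, 1 was lower and 8 were not called. Of all tested genes, 5.45% were called higher there and 5.05% lower. The relation between these pathway genes and the residual levels of Tmem119, Olfml3 and Golm1 in KO macrophages was not tested.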

How the data were processed

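Gene expression was measured by RNA-seq in 12 libraries. The authors' deposited table holds log2 values for 25904 genes. The tools STAR, bcl2fastq and CASAVA and the build GRCm38 are recorded per the submitters' processing notes. Not given in the sources used here are which tool counted the reads, on which annotation, whether strand was used, and how the counts were normalized. Removing the logarithm and the pseudocount of 1 gave whole multiples of 1 read for 100% of 310848 values (tolerance 0.01 reads), so the deposited unit is log2(normalized count + 1) and reads could be read back. Depth was 2615404 to 6364994 reads per library. Of the identifiers, 25730 had a symbol in GENCODE mouse release M21.

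Testing was limited to the 12519 genes that reached 10 normalized counts in 3 or more libraries. Differences were tested with limma 3.58.1 (R 4.3.3; lmFit and eBayes with trend) on the deposited log2 values, with 1 mean per group, 8 residual degrees of freedom and Benjamini-Hochberg adjustment over all tested genes at 0.05. It was tested on simulated data. Libraries are separate pools of mice. Replicates were numbered in accession order. Tables and plots were made in Python 3.11.15 (pandas 2.3.3, numpy 2.4.6, matplotlib 3.10.9, scipy 1.17.1).

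The text names all 9 members. From each pathway list it names up to 4 called genes with the largest change in KO microglia whose higher group averaged at least 100, and family members were chosen among those averaging at least 100 in some group. It also names the 2 nearest profiles per member (5 for their mean), adjacent genes, and Tgfbr2, Cx3cr1, Adgre1 and Itgam. Sparcl1, Slc2a8, Slc2a9, Fut4, Olfm1, Lag3, Slc1a3, Cd209f, Skil, Ddx3y, Sall1, Bmpr1a, Lrrc3, P2ry12, Naa35 and the genes given as exceptions to a count were named after their values were seen. Certain listed genes are not reported here. The members and lists were chosen with earlier results of these data known. Alternatives were filters, a pseudocount of 8, quantile normalization, scaling to totals, other eBayes options, fits of 2 groups, voom on reads, a Ddx3y covariate and leaving out each library.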

Additional observations from a re-analysis of the deposited data

Results flagged for a closer look

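The fall in KO cells differed between macrophages and microglia for 8 of the 9 signature genes, by the test of the difference itself (macrophages minus microglia on the log2 scale, limma). The difference was 8.26 for Tmem119, 7.43 for Olfml3, 7.27 for Sparc, 6.01 for Slc2a5, 4.21 for Crybb1, 3.52 for Golm1, 3.22 for Selplg and 1.06 for Siglech, each with the larger fall in microglia. For Sparc, Slc2a5 and Crybb1 the low level in WT macrophages allowed a fall of at most 5.74, 3.65 and 4.04 there, so the direction of their difference was fixed by that level. The same held narrowly for Tmem119, which could fall by at most 10.69 in macrophages and fell by 10.82 in microglia. With 3 libraries per group, no formal test for an outlying value was made.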

How the results depend on the processing

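Over 22 alternative settings, 963 of 981 values of single members kept their direction and their side of the threshold. The number of members called stayed at 9 of 9 for KO against WT microglia, at 8 or 9 for KO against WT macrophages and for the origins in WT cells, at 4 for the origins in KO cells and at 8 for the difference of the KO effects. Slc2a5 in macrophages lost its call with only the 2 groups fitted (-2.47, limma adjusted p = 0.0504). All changes of direction were in values not called as reported, and 1 of them was called after the change. For Fcrls between WT origins the value was 0.42 after quantile normalization (limma adjusted p = 0.0426), 0.0388 with scaling to library totals, and -0.29 to 0.10 when 1 library was left out. Between KO origins, Fcrls was at -0.14 with the Ddx3y covariate and at -0.0452 to 0.12 when 1 library was left out, Sparc at -0.43 to 0.19, Crybb1 at -0.81 to 0.10 and Selplg at -0.0826 to 0.00045. The difference of the KO effects of Fcrls was -0.33 after quantile normalization, -0.13 with the covariate and -0.0443 to 0.35 when 1 library was left out. The cause of these changes was not tested. Called sizes moved most where reads were few. With a pseudocount of 8, Slc2a5 in macrophages was at -1.11 and Crybb1 at -1.43, with voom on reads at -3.30 and -3.95, and without 1 library Slc2a5 ran from -3.16 to -1.88. Crybb1 in microglia ran from -8.19 to -5.36 over these 2 settings. No paired analysis was possible because the titles carry no replicate numbers that the groups share. Levels of Tmem119, Olfml3, Slc2a5 and Crybb1 in KO microglia, and of Slc2a5 and Crybb1 in KO macrophages, rest on 2 to 16 reads per group, so that differences among such groups were not detectable at this depth unless large.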
